A study of Homo sapiens with 24 samples.

Results

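The genes described here are 42 genes of double-strand break repair and the DNA damage checkpoint, among them 15 genes of homologous recombination, 12 sensor and checkpoint genes, 7 genes of end joining and 8 genes of the Fanconi anemia pathway. They were chosen by name, as the gene spots of the array whose gene name is a listed member or an older or newer symbol of it, and all 42 were found among 30982 gene names. All 42 also passed the filter on dim probes and were among the 22913 gene names tested. RNA of U87 cells, an established human glioblastoma line, was measured on Agilent arrays with 2 dyes, 24 h after irradiation with protons. Cells of the group U87 2 Gy received 2 Gy of protons and were compared with untreated U87 cells, and cells of the group U87 10 Gy received 10 Gy and were compared with the same control. Cells of the group U87 Si306 + 2 Gy received Si306, a Src family kinase inhibitor, at 10 µM and 2 Gy of protons, and were compared with cells given 2 Gy alone. Cells of the group U87 Si306 + 10 Gy received the same inhibitor and 10 Gy, and were compared with cells given 10 Gy alone. The inhibitor given without protons is not compared here.

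A double-strand break is bound by the MRE11, RAD50 and NBN complex, which activates the kinase ATM, while single-stranded DNA at resected ends activates the kinase ATR, and both kinases act through CHEK1 and CHEK2 and mark chromatin by phosphorylating histone H2AX. End joining ligates the ends directly, and homologous recombination copies the sister chromatid and works mainly in S and G2 phase. Proteins of the Fanconi anemia pathway act on DNA crosslinks and on stalled replication forks, and much of the response is set by protein modification, which an mRNA level does not report.

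On every array the treated RNA carried Cy5 and its control Cy3, without a dye swap, so that an effect of the dye and an effect of the treatment cannot be told apart in the ratio of a configuration. In the difference between 10 Gy and 2 Gy an effect of the dye that is common to the arrays cancels. The proton groups share the untreated control, but each Si306 group has PT alone at its own dose as control. Higher or lower at 10 Gy with Si306 therefore refers to the ratio against PT alone and not to the mRNA level. The labels give each configuration 6 biological replicates. According to the slide and position in the headers these are 3 scans of each of 2 arrays, and the scans of an array were averaged, so that n = 2 arrays for each configuration. Since that label is also on repeat scans of 1 array, it does not settle whether the 2 arrays of a configuration carry RNA of separate cultures, and the p-values measure only the spread between arrays, which may be technical. The 4 arrays of the proton groups lie on slide 1 and the 4 arrays of the Si306 groups on slide 2, so that slide and inhibitor cannot be told apart. RNA of 2 Gy alone is on both slides, as Cy5 in U87 2 Gy and Cy3 in U87 Si306 + 2 Gy. Its log2 signals differed for some members. CHEK1 was at 9.67 and 9.61 on slide 1 and 11.3 and 11.24 on slide 2, and XRCC4 at 9.38, 9.5, 12.62 and 12.59. In the same order EXO1 was at 7.9, 7.94, 10.2 and 10.11, and H2AFX at 10.94, 11.62, 13.72 and 13.7. NBN was lower on slide 2 (10.54, 10.46, 8.9 and 8.85), and BLM differed less (9.82, 9.81, 10.22 and 10.2). The cause was not tested, and each ratio is relative to the control of its own array. By the same headers, replicate 5 of U87 2 Gy was scanned from an array of the 10 Gy group and replicate 2 of U87 10 Gy from an array of the 2 Gy group, and both scans were left out. Of 7 genes of glioblastoma lines, 6 were well above background in both channels on all 8 arrays, and S100B was not. Of 7 genes of other cell types, 1, the keratin gene KRT19, was well above background in both channels on all arrays, and the leukocyte gene PTPRC was so on none. CD3E, EPCAM, PECAM1 and ALB were well above background on some arrays, and the part of such signals in the results was not tested.

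All values are log2 ratios of Cy5 to Cy3, normalized by loess within each scan, and a gene is said to have risen or fallen when limma's moderated test over all genes gave an adjusted p under 0.05. With this rule a large share of all genes passed in every configuration, and the members' counts are set beside that share. In U87 2 Gy, 10 of the 42 members rose and 19 fell, where 32.1% of all genes tested rose and 24.9% fell. In U87 10 Gy, 16 members rose and 17 fell, where 31.1% of all genes rose and 26.2% fell. In U87 Si306 + 2 Gy, 6 members rose and 24 fell, beside 38.5% and 27.8% of all genes, and in U87 Si306 + 10 Gy, 8 rose and 23 fell, beside 35.1% and 27.1%. With loess the share of members that fell was above the background share in each configuration, at 45.2%, 40.5%, 57.1% and 54.8%, whereas with median centring only 5, 7, 4 and 1 members fell and 29, 27, 34 and 30 rose. Between the doses, 7 members were higher and 3 lower at 10 Gy in the proton groups, beside 9.86% and 11.1% of all genes, and 7 were higher and 2 lower in the Si306 groups, beside 10.0% and 12.5%.

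With loess, few members changed by 1.5-fold or more, and the counts that follow are for loess. In U87 2 Gy none rose by this amount and DCLRE1C fell, beside 2.75% and 0.825% of all genes. In U87 10 Gy RAD51C rose, and H2AFX and PRKDC fell, beside 3.16% and 1.54%. In U87 Si306 + 2 Gy none rose, and EXO1, H2AFX and CHEK1 fell, beside 3.08% and 1.96% of all genes. In U87 Si306 + 10 Gy none rose and H2AFX fell, beside 2.08% and 1.62%. Between the doses no member passed this limit, beside 0.380% and 0.214% of all genes for the proton groups and 0.393% and 0.506% for the Si306 groups, while limma called 10 and 9 members there without a limit on size. With loess no member changed by 2-fold in any comparison, whereas with median centring XRCC6 was at 1.09 in U87 Si306 + 2 Gy. The median of the members with median centring was 0.36, 0.38, 0.62 and 0.29 in the order of the configurations. That of all genes was 0.27, 0.22, 0.43 and 0.26.

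**Figure D1:**
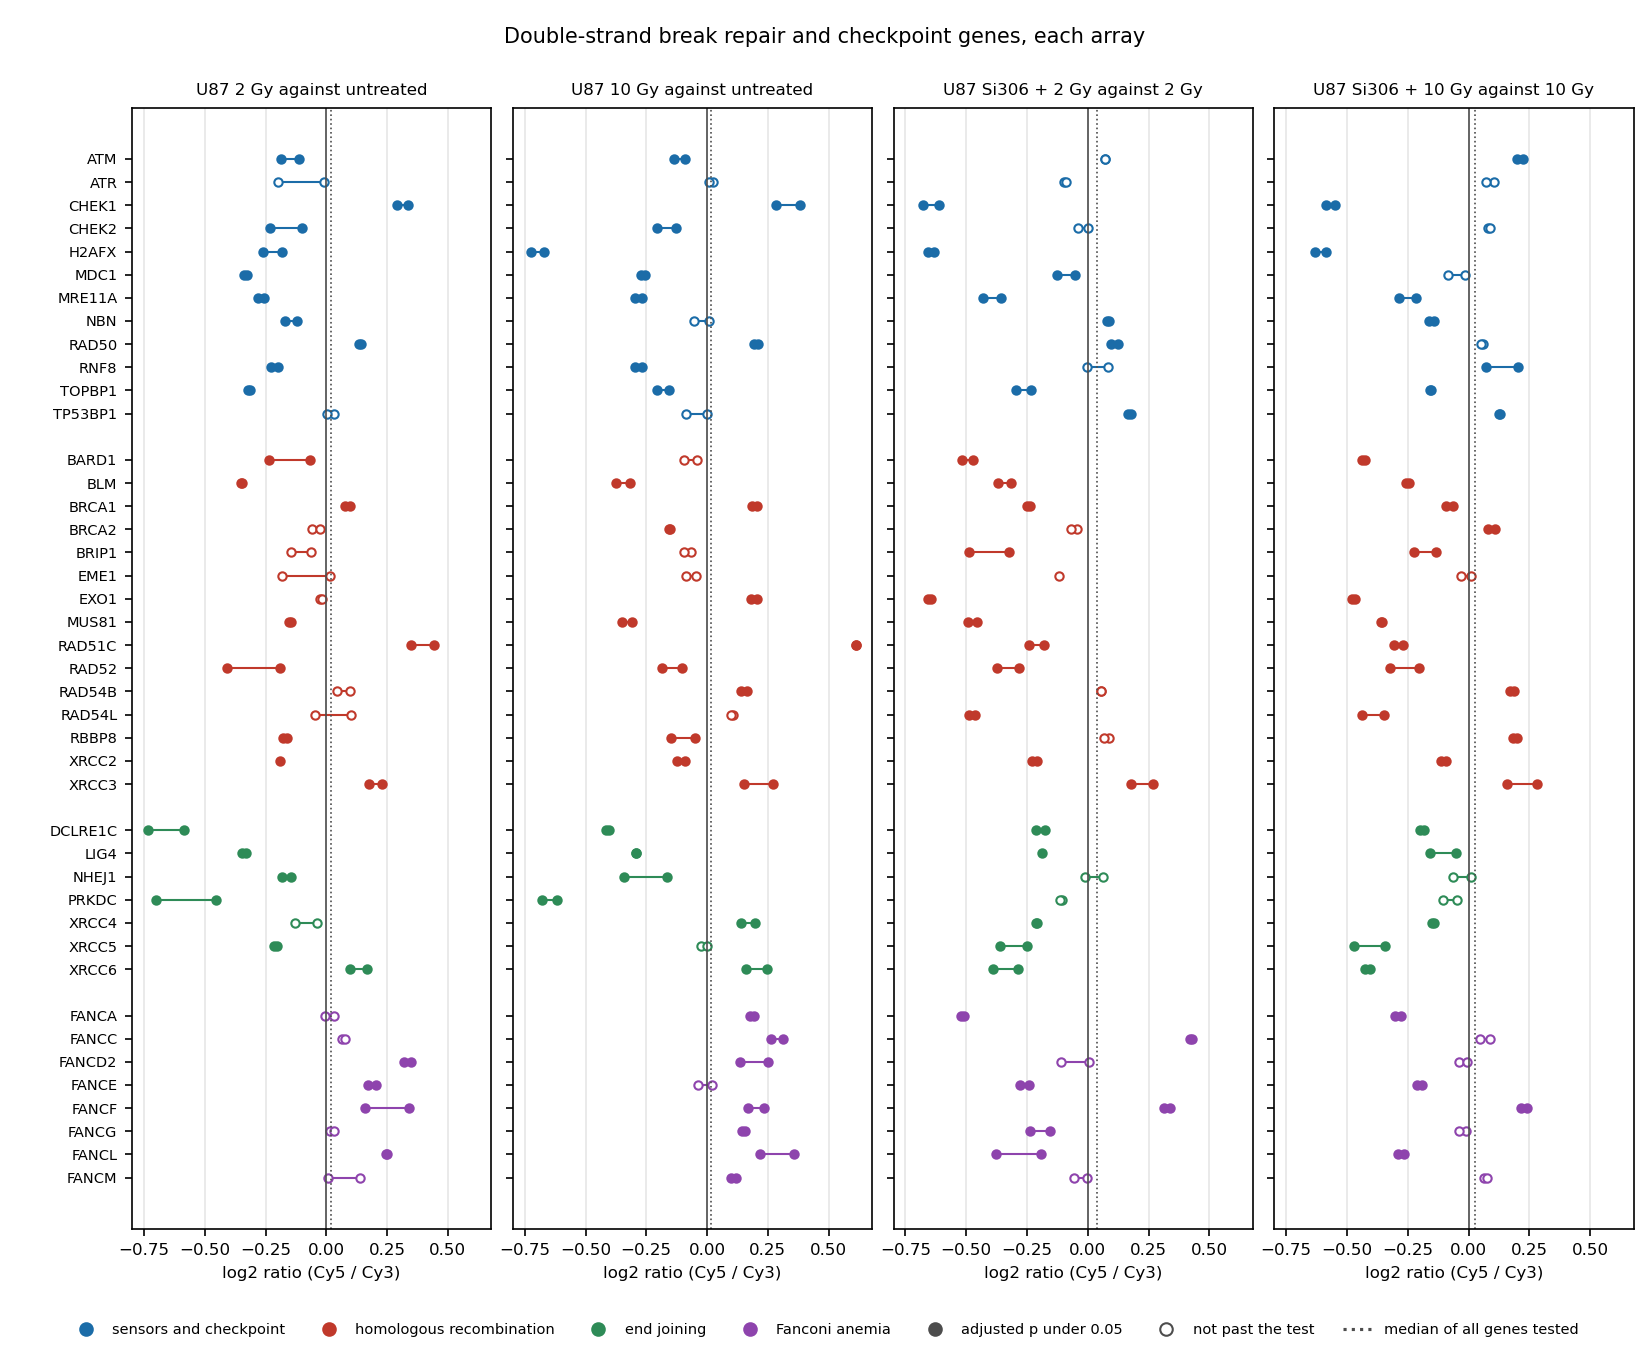
Log2 ratio of Cy5 to Cy3 (x axis) of the 42 genes (y axis, grouped by role) on each of the 2 arrays of a configuration, joined by a line, with filled points where the adjusted p was under 0.05 and a dotted line at the median of all genes tested. The largest distance between the arrays of a configuration was 0.25, for PRKDC in U87 2 Gy, and with median centring in place of loess many of the ratios below 0 lay above 0.

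The arrays of a configuration lay close together, as the plot of both arrays by role shows. Over the members measured on both arrays, the median distance between them was 0.04 and 0.05 for 2 Gy and 10 Gy of protons, and 0.04 and 0.03 for the same doses with Si306. The sign was the same on both arrays for 38 of 41, 40 of 42, 37 of 40 and 40 of 42 members in that order. LIG4 and EME1 in U87 Si306 + 2 Gy and XRCC2 in U87 2 Gy had a value on 1 array only, which was assumed to vary like the other groups, so that a call there has no replicate check. The brightest probe stands for a gene, and of 46 calls of members with more than 1 probe past the filter on dim probes, 18 had another probe of the opposite sign, which is given below beside the gene.

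The scaling within a scan moved the ratios by more than the distance between arrays. With median centring in place of loess, the median of all genes was 0.27, 0.22, 0.43 and 0.26 in the order of the configurations above, where loess gave 0.02, 0.02, 0.04 and 0.03. In the proton groups 59.3% and 57.5% of all genes then rose and 26.1% and 24.5% fell, and with Si306 63.5% and 59.3% rose and 26.3% and 21.8% fell. Between the doses the median of all genes with median centring was -0.01 for the proton groups and -0.13 for the Si306 groups, with 4.97% higher and 11.4% lower, and 17.6% higher and 42.6% lower. Groups of genes are therefore given relative to the median of all genes, under both scalings, and their counts are to be read beside the shares of all genes under the same scaling. The calls also depend on spots with an outlying local background, which were left out after their effect had been seen. With these kept in the background fit, 5, 7, 4 and 3 members rose and 1, 3, 14 and 9 fell, where 8.89%, 8.67%, 15.4% and 10.3% of all genes rose and 4.4%, 5.65%, 10.2% and 5.67% fell. Between the doses limma then called 0 members, where 4 were higher and 3 lower at an unadjusted p under 0.05 for protons and 7 and 3 with Si306, and under 1% of all genes were called in each direction.

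Relative to that median, the 42 members lay at -0.12 and -0.05 in the proton groups and -0.23 and -0.13 in the Si306 groups with loess, and at 0.10, 0.16, 0.19 and 0.04 with median centring, so that the direction of the whole list turned with the scaling. The direction of the homologous recombination members did not turn in these terms. They lay at -0.11, -0.08, -0.28 and -0.20 with loess and -0.06, -0.01, -0.16 and -0.04 with median centring. The 23 other recombination genes counted further below lay at -0.03, 0.00, -0.14 and -0.08 with loess. With median centring these 23 lay at 0.24, 0.22, 0.28 and 0.13. The Fanconi members lay above all genes in the proton groups under both scalings, and the end joining members lay below them there under both. Other genes of these pathways, counted further below, went the other way in the proton groups with loess. There 8 Fanconi genes lay at -0.05 and -0.04, and 9 end joining genes at 0.17 and 0.18. With median centring they lay at 0.14 and 0.20, and at 0.36 and 0.36.

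**Figure D2:**
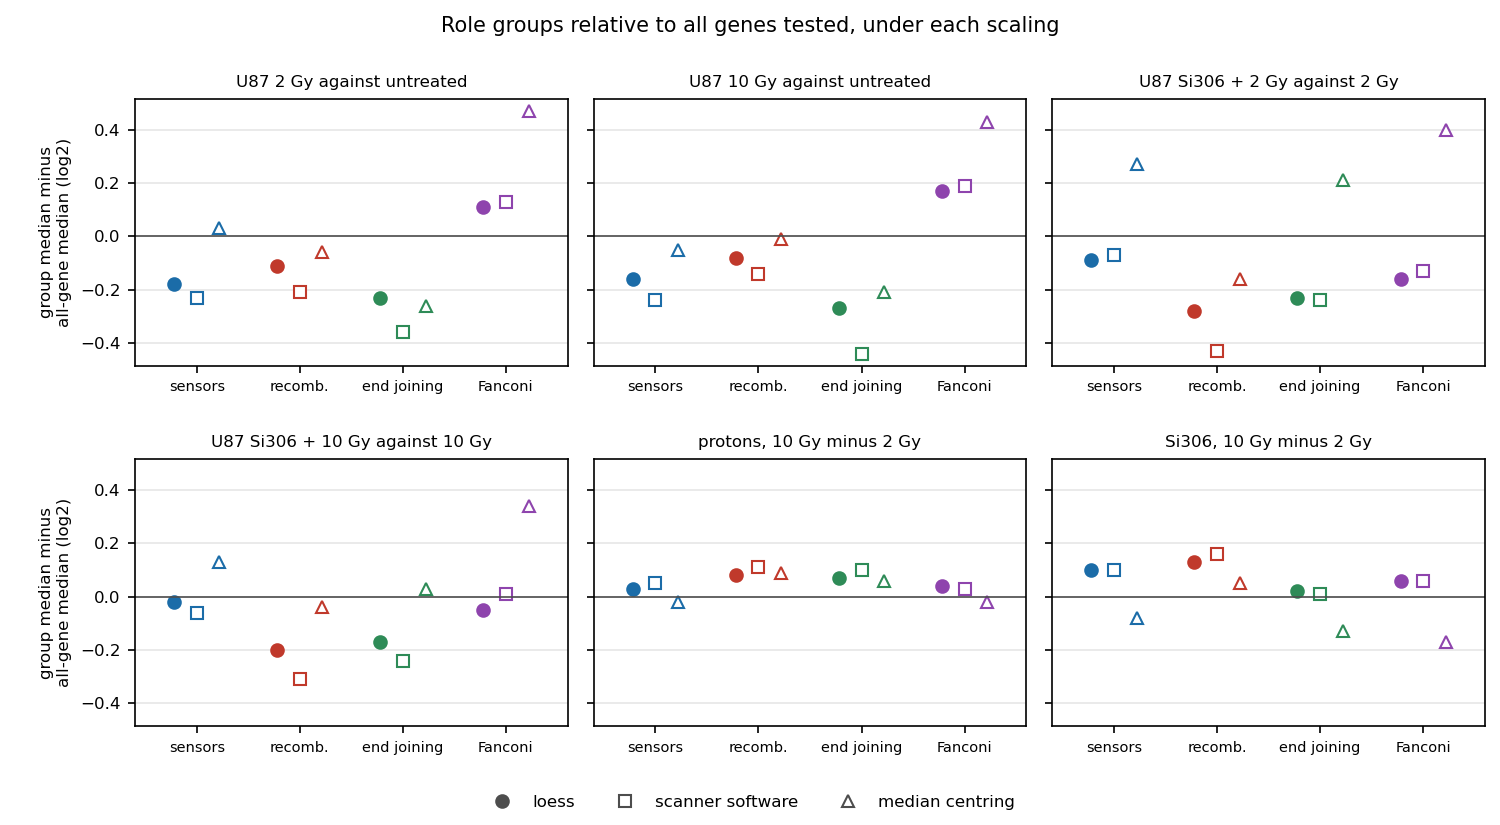
Median log2 ratio of each role group minus the median of all genes tested (y axis, log2), for loess, the scanner software's own log ratio and median centring, in the 4 configurations and the 2 dose differences. The homologous recombination members lay below 0 in all 4 configurations under each scaling. The sensor, end joining and Fanconi groups lay below 0 with loess and above 0 with median centring in the Si306 configurations, and sensors also in U87 2 Gy. With the scanner software's ratio the Fanconi group was at 0.01 in U87 Si306 + 10 Gy.

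Among the sensor and checkpoint genes, 2 rose and 8 fell of 12 in U87 2 Gy, beside 32.1% and 24.9% of all genes. In U87 10 Gy 2 of them rose and 7 fell, beside 31.1% and 26.2%. Relative to all genes their median was -0.18 and -0.16 with loess and 0.03 and -0.05 with median centring, so that the direction in U87 2 Gy turned. By counts, median centring gave 9 risen and 1 fallen, and 7 and 2, beside 59.3% and 57.5% of all genes risen and 26.1% and 24.5% fallen. With Si306, 3 rose and 5 fell at each dose, where 38.5% and 35.1% of all genes rose and 27.8% and 27.1% fell. The sensor medians were -0.09 and -0.02 relative to all genes. These turned to 0.27 and 0.13 with median centring, where 11 and 9 rose, beside 63.5% and 59.3% of all genes.

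H2AFX, the gene of histone H2AX, had ratios of -0.18 and -0.26 on the arrays of U87 2 Gy and of -0.72 and -0.67 on those of U87 10 Gy. The arrays of 10 Gy were lower than those of 2 Gy without overlap. Given with Si306, the ratios were -0.63 and -0.66 for 2 Gy, and -0.63 and -0.59 for 10 Gy. Both Si306 configurations thus lay in the same range, well below 0. The H2AFX signal in RNA of 2 Gy alone differed between the slides, so that proton and Si306 arrays are not compared as levels. H2AFX fell by 0.70 (SE 0.034, adjusted p = 3.86e-08, limma) in U87 10 Gy, 1.62-fold, and by 0.22 (adjusted p = 0.000225) in U87 2 Gy. In the Si306 configurations it was lower by 1.56-fold and 1.53-fold, with adjusted p of 6.73e-08 and 1.34e-07. With median centring the ratios were above 0 in U87 2 Gy (0.38), U87 Si306 + 2 Gy (0.48) and U87 Si306 + 10 Gy (0.12), while the fall in U87 10 Gy did not turn.

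CHEK1, the kinase that ATR activates, had ratios of 0.29 and 0.34 in U87 2 Gy and 0.28 and 0.38 in U87 10 Gy. The arrays with Si306 gave -0.68 and -0.61 for 2 Gy, and for 10 Gy -0.59 and -0.55. The ratio of CHEK1 was thus above 0 on every array of PT alone and below 0 on every array with the inhibitor. Its signal in RNA of 2 Gy alone differed between the slides, as given above, so that these arrays are not compared as levels. The rises were 0.31 and 0.33 (SE 0.036 each, adjusted p = 2.69e-05 and 1.58e-05) and the falls 1.56-fold and 1.48-fold (adjusted p = 9.9e-08 and 3.22e-07). The falls became ratios of 0.24 and 0.01 with median centring. CHEK2, the kinase downstream of ATM, fell in both proton groups, by 0.17 in U87 10 Gy with adjusted p = 0.00329, and turned to 0.22 and 0.18 with median centring. Its ratios with Si306, -0.02 and 0.08, did not pass the test.

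The promoters of these genes are shown because they moved by 1.5-fold or more in at least 1 configuration. They are the 250 bases before the first listed start in the RefSeq table of GRCh38.p14, with the CCAAT box (CCAAT or its reverse ATTGG) and the CHR element (TTTGAA or its reverse TTCAAA) in capitals.
CHEK1: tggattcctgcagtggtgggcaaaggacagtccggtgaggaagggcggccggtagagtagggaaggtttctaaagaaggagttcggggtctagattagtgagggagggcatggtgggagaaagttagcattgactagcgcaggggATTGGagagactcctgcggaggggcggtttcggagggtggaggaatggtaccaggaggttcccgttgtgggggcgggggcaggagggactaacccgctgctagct
H2AX: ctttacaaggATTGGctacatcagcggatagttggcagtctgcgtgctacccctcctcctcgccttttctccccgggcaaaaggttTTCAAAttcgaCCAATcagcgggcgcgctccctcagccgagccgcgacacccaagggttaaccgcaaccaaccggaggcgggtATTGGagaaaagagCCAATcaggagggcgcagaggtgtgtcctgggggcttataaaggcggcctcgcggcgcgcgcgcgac
The CHEK1 sequence lies at chr11:125625979-125626228 on the plus strand and holds 1 CCAAT box. The H2AX sequence, at chr11:119095466-119095715 on the minus strand, holds 4 CCAAT boxes and 1 CHR element, which starts 164 bases before the start. A match is a description of letters and not a binding site.

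Of the MRE11 complex, the nuclease gene MRE11A fell in all 4 configurations, by 0.27, 0.28, 0.39 and 0.25, but its second probe, on the same transcript, gave 0.06, 0.12, 0.09 and 0.08, so that the direction depends on the probe. RAD50, the coiled-coil subunit, rose in U87 2 Gy, U87 10 Gy and U87 Si306 + 2 Gy, by 0.14, 0.20 and 0.11, where its second probe gave -0.03, 0.00 and -0.12. NBN, the third subunit, fell by 0.15 in U87 2 Gy and in U87 Si306 + 10 Gy and rose by 0.08 in U87 Si306 + 2 Gy, where its adjusted p was 0.0461, while its second probe gave -0.48, -0.06 and 0.01 in these groups. The falls of NBN became 0.43 and 0.25 with median centring, and those of MRE11A with Si306 became 0.30 and 0.21. RAD50 was -0.00 in U87 Si306 + 2 Gy when its 2 probes were averaged.

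ATM, the kinase that responds to breaks, fell by 0.15 and 0.11 in the proton groups and rose by 0.21 (adjusted p = 0.000233) in U87 Si306 + 10 Gy. ATR did not pass the test in any configuration, with ratios from -0.10 to 0.09. MDC1, which binds phosphorylated H2AX, fell by 0.33 and 0.26 in the proton groups and by 0.09 in U87 Si306 + 2 Gy, and the ubiquitin ligase gene RNF8 fell by 0.21 and 0.28 in the proton groups and rose by 0.14 in U87 Si306 + 10 Gy. TOPBP1, an activator of ATR, fell in all 4 configurations, by 0.32, 0.18, 0.26 and 0.16, and TP53BP1, which favours end joining, rose with Si306 by 0.17 and 0.13. With median centring the falls of MDC1 and RNF8 turned in each group where they had passed, and that of TOPBP1 in all but U87 2 Gy.

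Of the 15 homologous recombination genes, 3 rose and 6 fell in U87 2 Gy, among them XRCC2 on 1 array, and 5 rose and 6 fell in U87 10 Gy, where 32.1% and 31.1% of all genes rose and 24.9% and 26.2% fell. Median centring gave 9 risen and 3 fallen at each dose, where 59.3% and 57.5% of all genes rose. With Si306, 1 rose and 10 fell at 2 Gy, and 4 rose and 10 fell at 10 Gy, where 27.8% and 27.1% of all genes fell, and median centring gave 10 risen and 4 fallen, and 8 and 1.

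RAD51C, which acts in strand exchange, had ratios of 0.44 and 0.35 in U87 2 Gy and 0.61 on both arrays of U87 10 Gy. The arrays with Si306 gave -0.24 and -0.18 for 2 Gy, and for 10 Gy -0.31 and -0.27. RAD51C was above 0 on every array of PT alone, where the arrays of 10 Gy lay higher, and below 0 on every array with the inhibitor. It rose 1.53-fold in U87 10 Gy (SE 0.035 in log2, adjusted p = 1.17e-07, limma) and 1.32-fold in U87 2 Gy (adjusted p = 3.54e-06). It fell by 0.21 and 0.29 with Si306, and median centring turned these falls to 0.65 and 0.28.

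EXO1, the exonuclease of end resection, had ratios of -0.03 and -0.02 in U87 2 Gy and 0.18 and 0.21 in U87 10 Gy. The arrays with Si306 gave -0.66 and -0.64 for 2 Gy, and for 10 Gy -0.47 and -0.48. The ratio of EXO1 was near 0 at 2 Gy of protons, higher at 10 Gy, and lowest on the arrays of U87 Si306 + 2 Gy. Its signal in RNA of 2 Gy alone differed between the slides, so that these ratios are not compared as levels. The falls were 1.57-fold (SE 0.030 in log2, adjusted p = 3.01e-08) and 1.39-fold (adjusted p = 3.3e-07), and the rise in U87 10 Gy was 0.19 (adjusted p = 0.000248). With median centring the ratios with Si306 were 0.12 and 0.05. The promoters of both genes, again 250 bases, are shown for their change of 1.5-fold or more and held neither a CCAAT box nor a CHR element.
EXO1: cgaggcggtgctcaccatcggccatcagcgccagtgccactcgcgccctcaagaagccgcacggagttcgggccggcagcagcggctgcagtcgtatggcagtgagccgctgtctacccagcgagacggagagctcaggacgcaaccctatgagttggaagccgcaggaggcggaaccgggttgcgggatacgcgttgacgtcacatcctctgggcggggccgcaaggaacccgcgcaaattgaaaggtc
RAD51C: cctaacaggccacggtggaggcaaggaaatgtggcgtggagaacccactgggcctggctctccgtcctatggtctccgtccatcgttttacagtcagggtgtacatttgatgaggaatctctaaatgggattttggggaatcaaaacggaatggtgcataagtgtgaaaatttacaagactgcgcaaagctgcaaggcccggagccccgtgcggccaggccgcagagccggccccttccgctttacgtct
The EXO1 sequence lies at chr1:241847954-241848203 and the RAD51C sequence at chr17:58692323-58692572, both on the plus strand of GRCh38.p14.

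BRCA1 rose by 0.09 and 0.20 in the proton groups and fell by 0.24 and 0.08 with Si306, where its partner BARD1 fell by 0.49 and 0.43. BARD1 also fell by 0.15 in U87 2 Gy, which turned to 0.21 with median centring. The helicase gene BRIP1, whose product binds BRCA1, fell by 0.41 and 0.18 with Si306, and BLM, a helicase that dissolves recombination intermediates, fell in all 4 configurations by 0.25 to 0.35. MUS81, a nuclease that cuts joint molecules, also fell in all 4, by 0.15, 0.33, 0.47 and 0.36. Its other probes were below 0 with Si306 too, but gave 0.02 and 0.04 in U87 2 Gy, and -0.15 and 0.08 in U87 10 Gy. RAD54L, a motor protein of strand exchange, fell by 0.48 and 0.39 with Si306 and did not pass the test in the proton groups. The falls of BRCA1, BARD1, BLM, MUS81 and RAD54L with Si306 turned with median centring, as those of BLM and MUS81 did in the proton groups.

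RAD52, the annealing protein, fell in all 4 configurations, by 0.30, 0.14, 0.33 and 0.26. RBBP8, which starts end resection with the MRE11 complex, fell by 0.17 and 0.10 in the proton groups and rose by 0.19 in U87 Si306 + 10 Gy. RAD54B rose by 0.15 in U87 10 Gy and 0.18 in U87 Si306 + 10 Gy, where its second probe gave 0.11 and -0.01. Of the strand exchange factors, XRCC2 fell by 0.11 in U87 10 Gy and by 0.22 and 0.10 with Si306, where 1 of the channels was well above background on only 1 of 2 arrays in each group. Its single array of U87 2 Gy gave -0.19, which passed the test with the spread of the other groups. XRCC3 rose in all 4 configurations, by 0.20 and 0.21 in the proton groups, with its control RNA well above background on 1 of 2 arrays of U87 2 Gy. That control was not well above background on the arrays with Si306, where XRCC3 was 1.17-fold and 1.16-fold higher. These are the measured ratios and not lower bounds, and they are open to dye bias. EME1, the partner of MUS81, passed the test in no configuration, with 1 array in U87 Si306 + 2 Gy. BRCA2, a mediator of strand exchange, passed the test as lower in U87 10 Gy and rose by 0.10 (adjusted p = 0.0205) in U87 Si306 + 10 Gy, with its control RNA well above background on 1 of 2 arrays. It was not well above background in the control RNA of either proton group, nor was BRIP1 in that of U87 2 Gy, and no size is given there. With median centring RAD52 and RBBP8 turned in both proton groups, XRCC3 in U87 2 Gy and U87 Si306 + 2 Gy, and BRCA2 in U87 Si306 + 10 Gy.

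Of the 7 end joining genes, 1 rose and 5 fell in U87 2 Gy, 2 rose and 4 fell in U87 10 Gy, and 5 fell in each Si306 configuration, among them LIG4, on 1 array at 2 Gy, where NHEJ1 and PRKDC did not pass the test and XRCC5 and XRCC6 had the largest falls. Over the 4 configurations 31.1% to 38.5% of all genes rose and 24.9% to 27.8% fell with loess. With median centring 57.5% to 63.5% of all genes rose and 21.8% to 26.3% fell. For end joining it gave 3 risen and 1 fallen, 3 and 2, and 5 risen in each Si306 configuration. Relative to all genes the median was -0.23 and -0.27 in the proton groups with loess and -0.26 and -0.21 with median centring, whereas the values with Si306, -0.23 and -0.17, turned to 0.21 and 0.03.

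DCLRE1C, the gene of the nuclease Artemis that opens hairpin ends, had ratios of -0.59 and -0.73 in U87 2 Gy and -0.42 and -0.40 in U87 10 Gy. The arrays with Si306 gave -0.18 and -0.21 for 2 Gy, and for 10 Gy -0.18 and -0.20. DCLRE1C had its lowest ratios on the arrays of 2 Gy of protons, and the arrays of 2 Gy and 10 Gy did not overlap. It fell 1.58-fold in U87 2 Gy (SE 0.038 in log2, adjusted p = 1.61e-07, limma) and 1.33-fold in U87 10 Gy (adjusted p = 4.31e-06). With median centring the ratio in U87 10 Gy was 0.02, and those with Si306 were 0.52 and 0.29. Its promoter, shown for the same reason as those above, lies at chr10:14954433-14954682 on the minus strand of GRCh38.p14 and holds CCAAT boxes that start 223 and 69 bases before the start.
DCLRE1C: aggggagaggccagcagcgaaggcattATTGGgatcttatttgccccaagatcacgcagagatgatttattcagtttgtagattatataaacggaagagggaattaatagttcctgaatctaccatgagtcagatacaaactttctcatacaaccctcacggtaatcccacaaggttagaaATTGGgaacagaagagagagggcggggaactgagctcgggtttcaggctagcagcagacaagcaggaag

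PRKDC, the catalytic subunit of DNA-dependent protein kinase, had ratios of -0.70 and -0.45 in U87 2 Gy and -0.68 and -0.62 in U87 10 Gy. It was lower on all 4 arrays of PT alone, and the arrays of U87 2 Gy were further apart than those of any other member. The fall was 1.49-fold in U87 2 Gy (adjusted p = 3.32e-06, limma) and 1.57-fold in U87 10 Gy (SE 0.050 in log2, adjusted p = 1.16e-06), while with Si306 the means were -0.11 and -0.07 and did not pass the test. A second probe of PRKDC gave -0.10 and -0.14 in the proton groups, 0.51 away from the brightest probe in U87 10 Gy, and -0.31 and -0.25 with Si306, so that the probes differ in which groups lay lower. The ratio in U87 2 Gy was 0.01 with median centring.

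XRCC6 and XRCC5 encode the Ku subunits that bind broken ends. XRCC6 rose by 0.13 and 0.20 in the proton groups and fell by 0.34 and 0.42 with Si306, and XRCC5 fell by 0.21 in U87 2 Gy and by 0.31 and 0.41 with Si306. With median centring both were above 0 with Si306, XRCC6 at 1.09 and 0.53 and XRCC5 at 0.64 and 0.21, and XRCC5 was at 0.40 in U87 2 Gy. LIG4, the ligase of end joining, fell by 0.34 and 0.29 in the proton groups and by 0.10 in U87 Si306 + 10 Gy, and its single array of U87 Si306 + 2 Gy gave -0.19, which passed the test with the spread of the other groups. Its partner XRCC4 rose by 0.17 in U87 10 Gy and fell by 0.21 and 0.15 with Si306, and NHEJ1, which bridges the ends with XRCC4, fell by 0.16 and 0.25 in the proton groups. Another probe of LIG4 gave 0.01 and 0.10 with Si306. The falls of LIG4 and XRCC4 with Si306 turned with median centring.

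Of the 8 Fanconi genes, 4 rose in U87 2 Gy and 7 in U87 10 Gy, beside 32.1% and 31.1% of all genes. The other Fanconi genes did not pass the test. The median of the 8 relative to all genes was 0.11 and 0.17 with loess, and 0.47 and 0.43 with median centring. With median centring all 8 rose in both, beside 59.3% and 57.5% of all genes. FANCD2, which is ubiquitinated when the pathway is active, rose by 0.34 and 0.19, and FANCL, the ubiquitin ligase, by 0.25 and 0.29. FANCF rose by 0.25 and 0.20, but its second probe gave -0.20 and -0.10. FANCE rose by 0.19 in U87 2 Gy, and FANCA, FANCC, FANCG and FANCM rose in U87 10 Gy by 0.18, 0.29, 0.15 and 0.11, where 1 of the 3 probes of FANCC gave -0.09. The difference between the doses passed its own test for FANCA, FANCC and FANCE and not for FANCG and FANCM. The other probes of FANCM gave -0.14 and -0.06 in U87 10 Gy, and the mean of the 3 was -0.03.

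With Si306, 2 Fanconi genes rose and 4 fell at 2 Gy, beside 38.5% and 27.8% of all genes. At 10 Gy 1 rose and 3 fell, beside 35.1% and 27.1%. The Fanconi medians of -0.16 and -0.05 relative to all genes turned to 0.40 and 0.34 with median centring. There all 8 rose at each dose, beside 63.5% and 59.3% of all genes. FANCA, a core complex subunit, had ratios of -0.52 and -0.51 on the arrays of 2 Gy, and of -0.30 and -0.28 on those of 10 Gy, and fell by 0.52 (SE 0.031, adjusted p = 1.57e-07) and 0.29. FANCE fell by 0.26 and 0.20, FANCL by 0.29 and 0.28, and FANCG by 0.20 at 2 Gy, and all of these falls, FANCA included, turned with median centring. FANCF, another core subunit, rose by 0.33 and 0.23 on its brightest probe, while the second probe, at -0.06 for both doses, lay below 0 in all 4 configurations.

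FANCC rose on its brightest probe by 0.42 in U87 Si306 + 2 Gy (SE 0.032, adjusted p = 7.56e-07, limma), but its probes disagreed by 0.85 there. Of its 3 probes, the brightest, which stands for the gene, gave 0.42 and another probe 0.88, and both were designed on a cDNA clone. The probe designed on the RefSeq transcript gave 0.03. In the proton groups the brightest probe gave 0.07 and 0.29 and the transcript probe 0.27 and 0.33, while the other clone probe gave -0.27 and -0.09. The first 30 of the 60 bases of the brightest probe and of the transcript probe are shown, because the size of the ratio with Si306 depends on the probe.
FANCC, brightest probe: ctatttgcgacacgaactgtgcccaatgtg
FANCC, transcript probe: gaatctgaccttactctagcaggagttttt
They lie at chr9:94965416-94965475 and chr9:94941136-94941077 in hg17, the build of the array, of which no annotation was used here. The coordinates of both clone probes ascend and those of the transcript probe descend, so that the clone probes run in the opposite direction. The clone probes may therefore not measure FANCC mRNA. In the main fit every call of FANCC, and every count that includes it, rests on the brightest probe.

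The probes of 5 other members with the largest changes are given by their first 30 bases, from the deposited tables with hg17 coordinates. Those of PRKDC, which is also among the largest changes and whose 2 probes disagree, are not shown. Of the 5, each but DCLRE1C had 1 probe, with no second probe to set beside it. The 2 probes of DCLRE1C differed by at most 0.11.
H2AFX, chr11:118469860-118469801: ctagaaccttaggcattggggagttttaga
CHEK1, chr11:125030701-125030760: tggtggaaaccaagtttcaggggacatgag
EXO1, chr1:238374758-238374817: aagcatccagaagagaaagcatcataatgc
RAD51C, chr17:54127438-54127497: gcttcataatcaccttctgttcagcactag
DCLRE1C, chr10:14990564-14990505: cagattcccagagctcttctgattttgaag
Of the 42 members, 28 had 1 probe that passed the filter on dim probes and 14 had more, and in FANCC and PRKDC the probes differed by over 0.5.

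Between the doses of protons, 7 members were higher at 10 Gy and 3 were lower. H2AFX was lower by the largest amount, -0.47 (SE 0.048, adjusted p = 0.000132, limma). XRCC4 and DCLRE1C were higher by 0.25 each, with adjusted p of 0.0046 and 0.00803, and DCLRE1C turned to -0.05 with local-background outliers kept. RAD51C, EXO1 and FANCC were higher by 0.22, XRCC5 by 0.20 and FANCA by 0.17, and FANCE and MUS81 were lower, at -0.20 and -0.18. The transcript probe of FANCC gave 0.05 and its other clone probe 0.18, and the other probes of MUS81 gave -0.17 and 0.04. With median centring 1 member was higher, beside 4.97% of all genes, and without either array of U87 10 Gy 3 were, beside 5.65% and 5.39%. The median of the members was 0.06 above that of all genes with loess and 0.02 above it with median centring.

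Each ratio with Si306 is against PT alone at its own dose, so that the values here compare ratios and not mRNA levels. Between the doses with Si306, FANCA and BRIP1 had higher ratios at 10 Gy by 0.23 each (adjusted p = 0.00486 and 0.0241, limma), ATR and EXO1 by 0.18, FANCG by 0.17, BRCA1 by 0.16 and BRCA2 by 0.15. FANCC and NBN were lower, at -0.36 and -0.23 (adjusted p = 0.000447 and 0.00546), where the other probes of FANCC gave -0.25 and, for the transcript probe, -0.00, and the second probe of NBN gave -0.07. The falls of FANCA, EXO1, BRCA1 and BRIP1 against PT alone were thus smaller at 10 Gy than at 2 Gy. CHEK1 and H2AFX did not differ past the test, at 0.08 (95% confidence interval -0.04 to 0.19) and 0.04 (-0.07 to 0.14). ATR, BRCA1, EXO1, FANCA and FANCG turned below 0 with median centring, with 3 members higher and 22 lower, and the median of the members, 0.09 above that of all genes, turned to -0.07. Without an array of either Si306 group, 1 or 2 members were higher, beside 4.71% to 6.28% of all genes. The plot of the dose differences shows the values of all members.

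**Figure D3:**
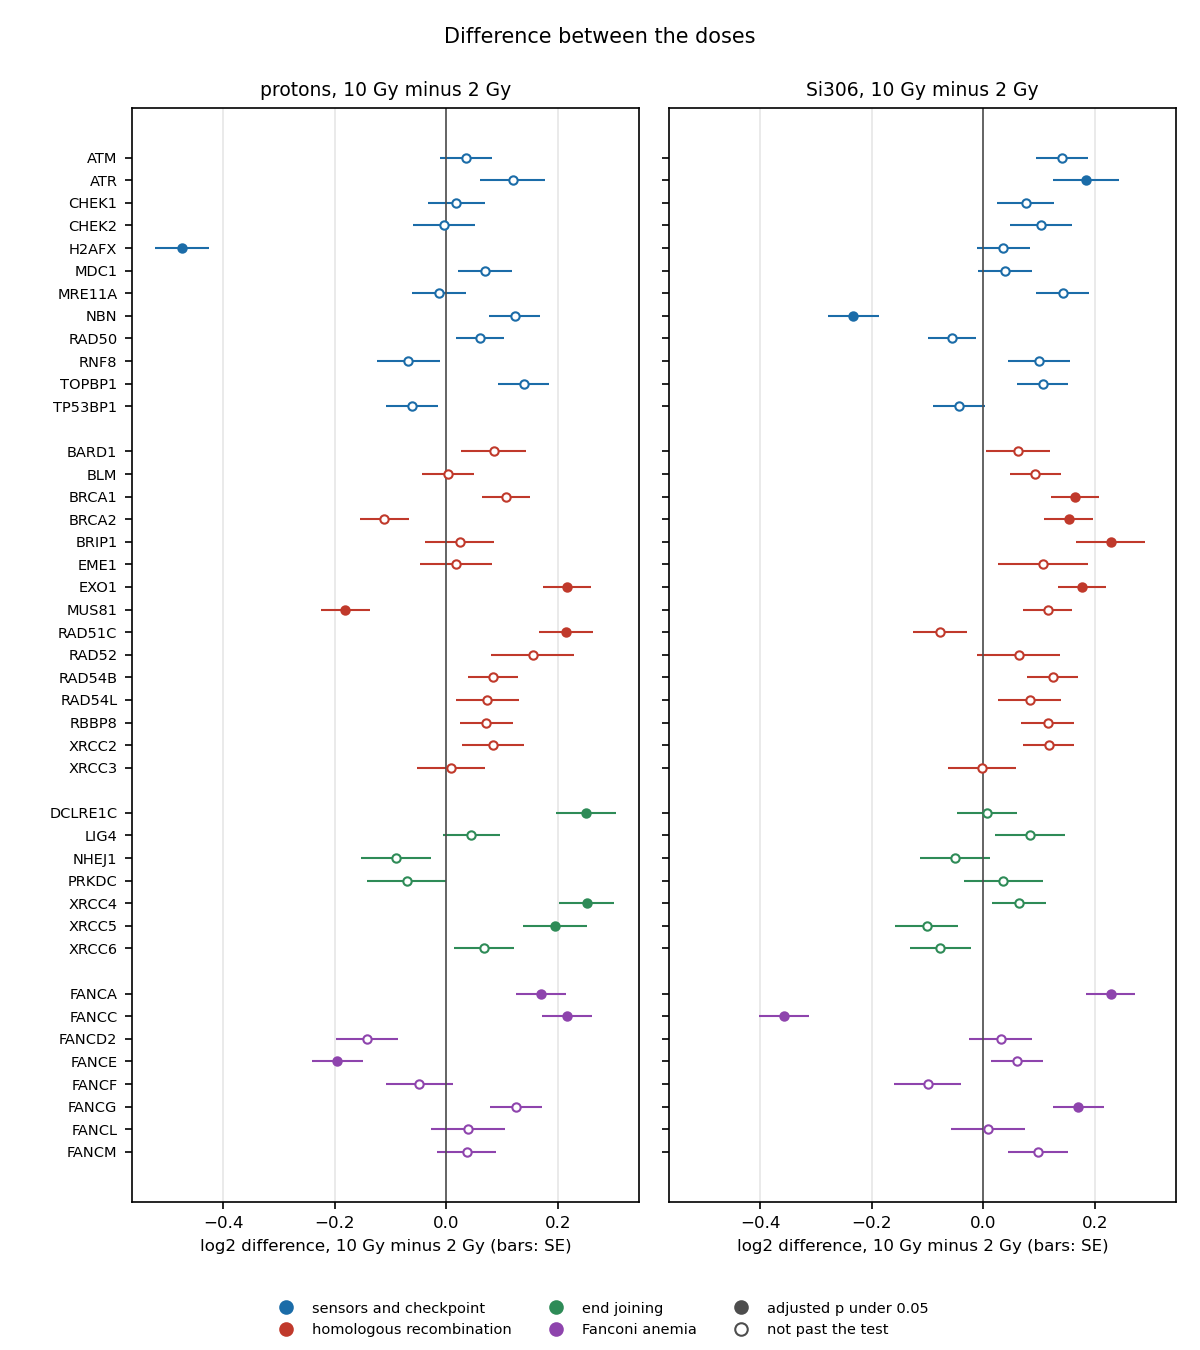
Difference in log2 ratio between 10 Gy and 2 Gy (x axis) of the 42 genes (y axis, grouped by role) for protons and for Si306 with protons, with SE as bars and filled points where the adjusted p was under 0.05. H2AFX, at -0.47, stands lowest for protons. FANCC, at -0.36, stands lowest for Si306, on a probe that runs opposite to its transcript probe. That transcript probe gave -0.00 and the other clone probe -0.25. With median centring 5 of the 7 higher genes of the Si306 panel lay below 0.

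**Figure D4:**
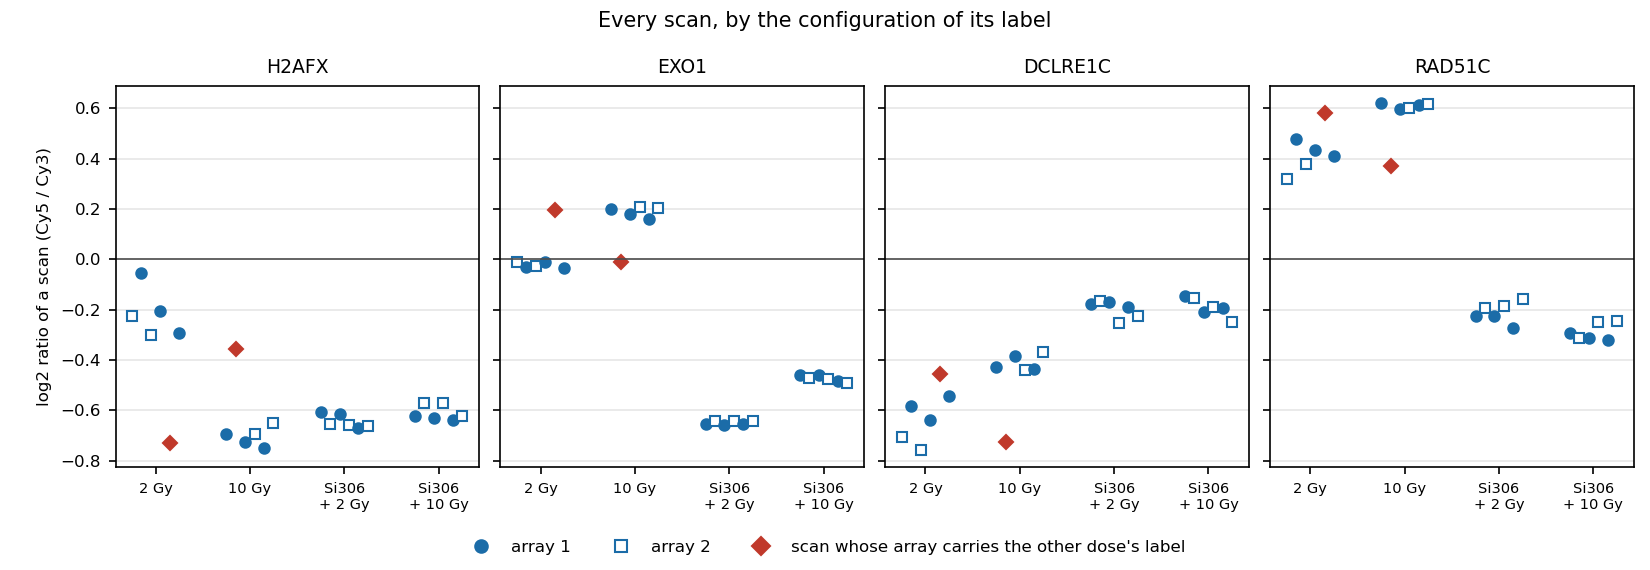
Log2 ratio of every scan (y axis) of H2AFX, EXO1, DCLRE1C and RAD51C by the configuration of its label (x axis), with circles for array 1, squares for array 2 and diamonds for the 2 scans whose array carries the label of the other dose. In H2AFX the diamond labelled 2 Gy lies at -0.73 and the diamond labelled 10 Gy at -0.36.

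The plot of every scan shows the genes that separate the doses of protons. Over the other scans of U87 2 Gy, H2AFX ranged from -0.30 to -0.05 with a median of -0.22, and over those of U87 10 Gy from -0.75 to -0.65 with a median of -0.69. The scan labelled 2 Gy that lies on an array of 10 Gy was at -0.73, and the scan labelled 10 Gy that lies on an array of 2 Gy was at -0.36. The former lay within the range of U87 10 Gy, and the latter lay outside both ranges and nearer to that of U87 2 Gy. Across probes, the SD of the difference in log2 ratio was 0.0772 and 0.0757 between these scans and those of their arrays, and 0.178 and 0.17 against those of their labels.

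Of the 42 members, 38 had a promoter in the RefSeq table. A CCAAT box lay in 18 of them (47.4%, beside 33.0% of 27305 promoters of the table), a CHR element in 5 (13.2%, beside 13.6%) and the GC box GGGCGG or its reverse CCGCCC in 26 (68.4%, beside 42.3%). The E2F sequence, TTTCGCGC or TTTGGCGC on either strand, lay in 1, FANCC (2.63%, beside 0.996%). Matches of different motifs could overlap, and no site is drawn from them.

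The other genes of these pathways were taken from a list of 62 genes, of which 58 were tested. In the proton groups 18 and 20 rose and 19 and 10 fell, at 2 Gy and 10 Gy in that order, and with Si306 8 and 14 rose and 25 and 24 fell. Over all genes tested 31.1% to 38.5% rose and 24.9% to 27.8% fell in the 4 configurations, which holds beside the lists that follow too. Median centring gave 49 and 48 risen and 6 and 5 fallen for protons, and 51 and 47 risen and 3 fallen at each dose with Si306, beside the 57.5% to 63.5% of all genes that rose with it. Relative to all genes the medians were -0.03, 0.04, -0.12 and -0.05 with loess, and 0.20, 0.23, 0.22 and 0.12 with median centring, so that all but that of U87 10 Gy turned. Between the doses 8 were higher and 6 lower for protons, beside 9.86% and 11.1% of all genes, and median centring gave 2 and 6. With Si306, 9 were higher and 4 lower, beside 10.0% and 12.5%, and median centring gave 4 and 30. Among the largest rises in the proton groups were those of USP1, which removes ubiquitin from FANCD2, by 0.71 and 0.50, and of PPM1D, a phosphatase that is a p53 target, by 0.39 and 1.21. The largest falls were those of the phosphatase CDC25C, by 0.42 and 0.69, with BRE, a subunit of a BRCA1 complex, and the nuclease GEN1 in U87 2 Gy, by 0.36 and 0.33, and the kinase WEE1 and UIMC1, of the same complex as BRE, in U87 10 Gy, by 0.53 and 0.40. With median centring BRE was at 0.16 and UIMC1 at 0.11. With Si306 the polymerase POLM rose by 0.60 at both doses, the ubiquitin ligase gene RNF168 and the polymerase POLL by 0.33 and 0.28 at 2 Gy, and RMI1, a partner of BLM, and the end joining factor APLF by 0.35 and 0.29 at 10 Gy. The helicase RTEL1 fell by 0.44 and 0.46, with the fork protein TIMELESS and RPA3, which binds single-stranded DNA, at 2 Gy, by 0.54 and 0.41, and TDP2, which removes trapped topoisomerase, and UBE2T, which ubiquitinates with FANCL, at 10 Gy, by 0.45 and 0.44. All 6 of these falls with Si306 turned with median centring.

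Of 30 tested genes of base excision, nucleotide excision and mismatch repair, 17 and 15 rose and 8 and 9 fell in the proton groups, and 6 rose at each dose and 14 and 10 fell with Si306. Median centring gave 27 and 24 risen for protons, and 27 risen and 2 fallen at each dose with Si306. Relative to all genes they lay at 0.13, 0.08, -0.12 and -0.07 with loess, and the values with Si306 turned to 0.24 and 0.16 with median centring. Between the doses 3 were higher and 6 lower for protons, with 2 and 8 by median centring, and with Si306 6 were higher and the others did not pass the test, where median centring gave 1 higher and 15 lower. The kinds of repair differed in the proton groups with loess. Of 6 mismatch repair genes 1 and 0 rose and 4 and 5 fell, where median centring gave 5 and 4 risen. Of 13 base excision genes 9 and 7 rose and 3 and 2 fell, and of 11 nucleotide excision genes 7 and 8 rose and 1 and 2 fell.

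Many of the members are expressed mainly in dividing cells, and genes of the cell cycle moved in the same comparisons. Of 16 S phase genes, 6 rose and 6 fell in U87 2 Gy and 7 rose and 1 fell in U87 10 Gy, with medians of -0.02 and 0.07 relative to all genes that became 0.37 and 0.39 with median centring, where 14 rose and 1 fell at each dose. With Si306, 16 fell at 2 Gy and 14 at 10 Gy, with medians of -0.43 and -0.38 relative to all genes that became 0.13 and 0.00 with median centring, where 13 and 11 rose. Of 13 genes of G2 phase and mitosis, 11 fell in each proton group, with medians of -0.45 and -0.60 relative to all genes with loess and -0.12 and -0.43 with median centring, where 2 and 8 fell and 7 and 3 rose. With Si306, 10 and 9 of them fell, and their medians of -0.30 and -0.21 turned to 0.23 and 0.10 with median centring, where 11 and 9 rose. Between the doses of protons 9 S phase genes were higher and 8 genes of G2 phase and mitosis lower, and with median centring 3 S phase genes were higher and 1 lower and 7 genes of G2 phase and mitosis lower. With Si306, 4 S phase genes were higher and 1 lower, and 3 genes of G2 phase and mitosis higher, and both medians relative to all genes, 0.09 and 0.04, turned to -0.13 and -0.12 with median centring, where 10 S phase genes were lower, and 9 genes of G2 phase and mitosis were lower and 1 higher. Their part in the ratios of the repair genes was not tested, and a smaller share of cells in a phase cannot be told apart from less mRNA per cell.

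Of the named genes, the mitotic gene CCNB1 fell by 0.54 and 0.78 in the proton groups and by 0.17 and 0.18 with Si306, and TOP2A fell by 0.48 and 0.79 in the proton groups. TOP2A was at -0.03 in U87 Si306 + 2 Gy and rose by 0.17 in U87 Si306 + 10 Gy. MKI67, a marker of dividing cells, fell by 0.10, 0.15, 0.40 and 0.29 in the order of the configurations. With median centring CCNB1 was above 0 in U87 2 Gy (0.10) and with Si306 (0.93 and 0.52), and TOP2A was at 0.07 in U87 2 Gy. PCNA, the sliding clamp of DNA synthesis, rose by 0.81 and 1.54 in the proton groups and fell by 0.53 and 0.72 with Si306, where median centring gave 0.63 and 0.02. Between the doses of protons CCNB1, TOP2A and PCNA differed by -0.24, -0.32 and 0.73 and MKI67 was at -0.04, not past the test. With Si306 the ratios of PCNA and TOP2A against PT alone differed by -0.19 and 0.20, the latter turning to -0.12 with median centring. Those of CCNB1 and MKI67, at -0.02 and 0.11, did not pass the test.

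Of 19 p53 targets, 12 rose and 5 fell in U87 2 Gy, and 19 rose in U87 10 Gy, where median centring gave 18 and 19 risen. With Si306, 6 rose and 9 fell at 2 Gy, and 5 rose and 8 fell at 10 Gy, where median centring gave 16 risen and 1 fallen at each dose. Between the doses of protons 19 were higher at 10 Gy, and 16 with median centring, and with Si306 3 were higher and the others did not pass the test, where with median centring 8 were lower. Relative to all genes the medians were 0.22, 0.66, -0.11 and -0.07 with loess and 0.44, 0.97, -0.04 and -0.01 with median centring. CDKN1A, the inhibitor of cell cycle kinases, rose by 0.38 and 1.20 in the proton groups and by 0.21 and 0.22 with Si306, and MDM2, which degrades p53, fell by 0.21 in U87 2 Gy, which turned to 0.15 with median centring, and rose by 0.10, 0.24 and 0.13 in the other configurations, in the last with 1 of 2 arrays well above background in the control. Between the doses CDKN1A was higher by 0.81 and MDM2 by 0.32 for protons, and with Si306 they were at 0.02 and -0.10 and did not pass the test.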

How the data were processed

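RNA of U87 cells was hybridized on Agilent 2-colour arrays. Per the labels and the file headers, the authors extracted the values with Agilent Feature Extraction 9.5.3.1. The deposited tables hold the mean signal intensity and local background intensity of both dyes for 45015 spots, not normalized, and a log10 ratio after the software's background correction and dye normalization. The deposited series matrix holds the same log10 ratio, rounded.

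The slide and position in the headers assigned 24 scans to 8 arrays, and 22 scans were used. Before any correction, each spot with an outlier mark on itself or its local background was left out, between 2.98% and 5.73% per scan. The software placed 57.3% to 66.5% of Cy3 spots and 63.4% to 74.7% of Cy5 spots well above background. Median local background was taken off mean signals by normexp (offset 50), and loess within each scan gave log2 ratios, with control spots at weight 0. Spots of a probe and then scans of an array were averaged. A probe was kept if either dye was well above background on a share of at least 0.667 of the arrays of some configuration, with a value in every configuration, and the brightest probe stood for a gene name. The 8 arrays formed 4 groups in a limma fit (version 3.58.1, R 4.3.3) with 4 residual and 6.55 prior degrees of freedom, and p-values were adjusted by Benjamini-Hochberg across 22913 genes. The fit was tested on simulated data. The number of arrays limits the precision. Also used were statmod 1.5.0, data.table (version 1.17.8), Python 3.11.15, pandas 2.3.3 and matplotlib 3.10.9.

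Some choices were made after values had been seen. Local-background outliers were at first kept, with local background up to 65369, and they were left out after far fewer genes had been called than in the earlier results of these data. Without them it reached at most 78. The rule on missing values, the fits on single scan passes, the genes checked for outlying scans, the promoters shown and the comparison of probe signs were also chosen then. The members and lists were chosen with earlier results of these data known. All 42 members are named. Of the wider list, the 3 largest rises and the 3 largest falls of each configuration past the adjusted p and of the same sign on both arrays are named, except 1 gene that is not reported here, and of the proliferation and p53 lists MKI67, TOP2A, CCNB1, PCNA, CDKN1A and MDM2. PALB2, ATRIP and TIPIN were not found by name, and 8 genes of the wider list were found by an older name. Of the members, 40 were matched by current symbol and 2 by an older symbol. The probe's accession named the member in the RefSeq table for 39, and those of BRCA1, FANCC and XRCC2 are not in that table. Where a gene had several starts the first listed was used. Alternatives were the scanner software's ratio, the series matrix, median centring, other background corrections, other filters, the mean over probes, other uses of scans, each array left out, the replicate number as a block, and GC content.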

Additional observations from a re-analysis of the deposited data

Results flagged for a closer look

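Differences between the doses passed limma's test for 10 members in the proton groups and 9 in the Si306 groups. The members higher and lower at 10 Gy were 16.7% and 7.14% for protons, beside 9.86% and 11.1% of all genes. In the Si306 groups they were 16.7% and 4.76%, beside 10.0% and 12.5%. When local-background outliers were kept, limma called 0 members in both comparisons. At an unadjusted p under 0.05, 4 were then higher and 3 lower for protons, and 7 and 3 with Si306. For protons, 10 Gy minus 2 Gy was 0.25 for DCLRE1C and XRCC4, 0.22 for EXO1, FANCC and RAD51C, 0.20 for XRCC5 and 0.17 for FANCA, and it was -0.47 for H2AFX, -0.20 for FANCE and -0.18 for MUS81. With Si306 it was 0.23 for BRIP1 and FANCA, 0.18 for ATR and EXO1, 0.17 for FANCG, 0.16 for BRCA1 and 0.15 for BRCA2. It was -0.36 for FANCC and -0.23 for NBN. Both FANCC values are of its brightest probe, which runs opposite to its transcript probe.

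A scan far from the others of its label was found in 6 of 28 groups of scans checked. The share of about 1 in 20 that chance gives is for independent values and does not hold here, since each group holds scans of the same arrays and 6 of the genes were chosen for large changes. H2AFX was at -0.73 in a scan labelled U87 2 Gy and EXO1 at 0.20 in the same scan, which lies on an array of U87 10 Gy. In the scan labelled U87 10 Gy that lies on an array of U87 2 Gy, DCLRE1C was at -0.72, H2AFX at -0.36, RAD51C at 0.37 and EXO1 at -0.01. These are the 2 scans that were left out.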

How the results depend on the processing

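Of the member values that had passed the test, 73 changed sign under some alternative, 70 of them with median centring, as did 16 values of genes named from the other lists. In U87 2 Gy the values with median centring were 0.21 (BARD1), 0.19 (BLM), 0.22 (CHEK2), 0.38 (H2AFX), 0.17 (MDC1), 0.51 (MUS81), 0.43 (NBN), 0.01 (PRKDC), 0.09 (RAD52), 0.41 (RBBP8), 0.20 (RNF8), -0.06 (XRCC3), 0.40 (XRCC5), 0.16 (BRE), 0.10 (CCNB1), 0.15 (MDM2) and 0.07 (TOP2A). In the 10 Gy group they were 0.11 (BLM), 0.18 (CHEK2), 0.02 (DCLRE1C), 0.17 (MDC1), 0.21 (MUS81), 0.22 (RAD52), 0.39 (RBBP8), 0.08 (RNF8), 0.11 (TOPBP1) and 0.11 (UIMC1). With Si306 and 2 Gy the values became 0.18 (BARD1), 0.46 (BLM), 0.36 (BRCA1), 0.24 (CHEK1), 0.52 (DCLRE1C), 0.12 (EXO1), 0.27 (FANCA), 0.80 (FANCE), 0.93 (FANCG), 0.72 (FANCL), 0.48 (H2AFX), 0.03 (LIG4), 0.81 (MDC1), 0.30 (MRE11A), 0.60 (MUS81), 0.65 (RAD51C), 0.47 (RAD54L), 0.13 (TOPBP1), -0.16 (XRCC3), 0.82 (XRCC4), 0.64 (XRCC5), 1.09 (XRCC6), 0.93 (CCNB1), 0.63 (PCNA), 0.73 (RPA3), 0.35 (RTEL1) and 0.48 (TIMELESS). With Si306 and 10 Gy the values became 0.03 (BARD1), 0.28 (BLM), 0.33 (BRCA1), -0.01 (BRCA2), 0.01 (CHEK1), 0.29 (DCLRE1C), 0.05 (EXO1), 0.24 (FANCA), 0.48 (FANCE), 0.38 (FANCL), 0.12 (H2AFX), 0.04 (LIG4), 0.21 (MRE11A), 0.34 (MUS81), 0.25 (NBN), 0.28 (RAD51C), 0.22 (RAD54L), 0.11 (TOPBP1), 0.52 (XRCC4), 0.21 (XRCC5), 0.53 (XRCC6), 0.52 (CCNB1), 0.02 (PCNA), 0.07 (RTEL1), 0.24 (TDP2) and 0.28 (UBE2T). Between the doses with Si306 they were -0.13 (ATR), -0.03 (BRCA1), -0.08 (EXO1), -0.03 (FANCA), -0.22 (FANCG) and -0.12 (TOP2A).

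With median centring the counts of members higher were 29, 27, 34 and 30 in the configurations (2 Gy, 10 Gy, and both with Si306) and 1 and 3 in the dose differences (protons, Si306), and those lower were 5, 7, 4 and 1, with 22 for the dose difference with Si306. FANCM was -0.03 at 10 Gy of protons and RAD50 -0.00 with Si306 and 2 Gy for the mean over probes. The main fit called 10, 16, 6 and 8 members higher and 19, 17, 24 and 23 lower in the configurations. In the dose differences it called 7 higher and 3 lower for protons and 7 and 2 with Si306. With local-background outliers kept in normexp, an alternative added after seeing the data, 96 of these calls were lost and DCLRE1C was -0.05 between the doses of protons. The counts higher were then 5, 7, 4 and 3 and those lower 1, 3, 14 and 9, and limma called 0 in either direction in both dose differences (unadjusted 4 higher and 3 lower for protons, 7 and 3 with Si306), beside 0.811% higher and 0.941% lower of all genes for protons and 0.641% and 0.859% with Si306. The cause was not tested in any of these.

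The scanner software's ratio reversed none of 252 member results, with 15 lost and 17 gained, and the series matrix gave the same numbers. No other background correction, filter or GC setting reversed a result. Signal over background limits BRCA2, BRIP1, XRCC2 and XRCC3, of which a channel was not well above background on some arrays.

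The replicate block (replicate number of the labels, every scan as its own sample) gave 13 members higher with Si306 and 10 Gy, 12 for the dose difference of protons, and 20 higher and 4 lower for that of Si306, and the same fit without the block gave the same 4 counts. The numbers do not pair the samples, with correlations of deviations from -0.238 to 0.225 between 2 Gy and 10 Gy and from -0.003 to 0.025 with Si306. With the array as a random block (correlation 0.508) 12 were higher and 5 lower for protons and 13 were higher for Si306.

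Single scan passes, also added later, gave for the dose difference with Si306 4 higher and 1 lower in pass 1, 4 higher in pass 2, and 2 higher and 1 lower in pass 3. Pass 3 gave 0 higher (limma, 5 at an unadjusted p under 0.05) and 1 lower for protons, and 10 lower at 10 Gy of protons. Both scans left out are of pass 3, so that each proton group is 1 array there, assumed to vary like the others, and 1.77% and 1.81% of all genes were called between the doses of protons. A value required on every array changed no call of the 240 results it left.

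Leaving out each array in turn, with the lone array assumed to vary like the others, gave 4 to 10 members higher with Si306 and 10 Gy, 3 to 7 for the dose difference of protons and 1 to 8 for that of Si306, and no call changed sign. With Si306 and 10 Gy it was 4 without U87 Si306 + 10 Gy replicate 2. For the dose difference of protons it was 3 without either array of U87 10 Gy. For that of Si306 it was 2 without either array of U87 Si306 + 2 Gy or without replicate 1 of U87 Si306 + 10 Gy, and 1 without replicate 2 of the latter.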
